A study of Mus musculus with 6 samples.

Results

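The collagen genes of fetal mouse hepatocytes are described here, with and without Cnot3, before and after transcription was blocked. They were taken as all genes whose annotated symbol has the form Col, a number, a and a number. This rule gave 42 genes of 18193 genes on the array, each represented by the probe set that named it alone and had the highest mean signal over the 6 arrays. Of these 42 genes, 23 lay above the median intensity of the array on all 6 arrays, 4 on some arrays (Col14a1 on 5, Col22a1 and Col8a1 on 2 and Col15a1 on 1) and 15 on none. A further 2 collagen symbols of the RefSeq gene table, Col28a1 and Col6a6, had no probe set of their own.

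Total RNA came from hepatocytes of E16.5 embryos kept in culture for several days, and 1 Affymetrix mouse expression array was hybridised for each genotype (control and Cnot3KO) at 0, 6 and 12 h of actinomycin D (ActD), which blocks transcription. Cnot3KO embryos carried floxed Cnot3 alleles and Cre recombinase driven by the Albumin promoter, which acts in cells of the hepatic lineage and leaves Cnot3 intact in other cells of the liver. Controls, labelled wild type, could per the methods of the study have floxed alleles but no Cre, or Cre and at least 1 intact allele. Which of these genotypes gave the control cultures is not stated there. All cultures of both genotypes received serum, oncostatin M and dexamethasone on gelatin, which is denatured collagen, and floating cells were washed off after plating. How many embryos an array stands for is not given in the sources used here. With 1 array for each genotype and time, a p-value measures how well the 3 times agree and not how embryos differ.

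Collagens are trimeric proteins of the extracellular matrix whose chains wind into a triple helix. Fibrillar chains build the banded fibres of connective tissue, type IV chains the network of basement membranes and type VI chains beaded filaments, while fibril-associated collagens decorate the fibres. In liver, stellate cells, portal fibroblasts and mesothelial cells are the known main producers of fibrillar collagen, type IV collagen lines sinusoids and ducts, and hepatocytes are a known source of type XVIII collagen. Cnot3 is a subunit of the Ccr4-Not complex, which shortens poly(A) tails and so starts the decay of many mRNAs. Collagen mRNAs are known as long-lived mRNAs whose stability in stellate cells is regulated.

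The deleted gene Cnot3 had an intensity of 296, 214 and 158 in control cells and 174, 174 and 146 in Cnot3KO cells at 0, 6 and 12 h. Before ActD its level in Cnot3KO cells was 1.70-fold below that of control cells, at 12 h 1.08-fold, and whether its probe set lies in the deleted part is not given in the sources used here. Array medians ranged from 69.7 to 72.4 and rank correlations of arrays (Spearman's rho) from 0.935 to 0.993. Intensities are relative within an array: RMA, the normalisation used by the authors, gives all arrays 1 distribution, so that an mRNA that outlasts the others goes up after ActD. The median change over 12 h of all genes tested was 0.15 in control and 0.08 in Cnot3KO cells on the log2 scale. In such bulk RNA, fewer cells of a type and less RNA per cell cannot be told apart. As a measure of how far probe sets of 1 gene disagree, their SD was taken over 4117 genes with a pair of them above the median on all arrays. It was 0.24 for the difference at 0 h and 0.32 for the genotype difference over the times. For the change it was 0.51 in control and 0.25 in Cnot3KO cells. For the difference between both changes it was 0.42, all on the log2 scale. Both probe sets read the same arrays, so this SD leaves out the spread between arrays, cultures and embryos.

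Most collagen mRNAs were close between the genotypes before ActD and lower in Cnot3KO cells 12 h later. Over all 42 genes the median difference, Cnot3KO minus control on the log2 scale, was -0.07 at 0 h, -0.31 at 6 h and -0.45 at 12 h, against 0.03, -0.05 and -0.03 over all genes tested. At 12 h 38 of 42 genes had a value below 0. Of the 38 collagen genes that passed the filter on low signal (above the 20th percentile of an array on at least 1 array), 15 were more than 1.5-fold lower in Cnot3KO cells at 12 h, against 13.9% of all genes. Only Col7a1 was more than 1.5-fold higher at 12 h, where 27.7% of all genes were. Before ActD, Col4a5 alone was more than 1.5-fold lower, where the share among all genes was 2.99%, and no collagen gene was more than 1.5-fold higher, against 6.87%. These counts compare single arrays and carry no test.

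No collagen gene passed the test of the genotype difference over the 3 times (limma with genotype and time as terms, Benjamini-Hochberg adjusted p under 0.05 over 16499 genes). Among all genes 0.285% passed as lower and 0.703% as higher, so few genes of either kind passed. At an unadjusted p under 0.05, 13 of 38 collagen genes were lower and 1, Col7a1, was higher, beside 11% and 22.4% of all genes. The smallest adjusted p-values were 0.059 for Col1a1, 0.062 for Col4a5 and 0.063 for Col18a1. Without the arrays at 0 h, 14 of 38 collagen genes passed as lower at adjusted p, beside 11% of all genes as lower and 24.3% as higher. Centred on Gapdh, which moved the genotype difference of every gene by -0.11, 9 of 38 passed as lower. Beside them 5.05% of all genes passed as lower and 10.9% as higher. Centred on ribosomal protein genes, 0 of 38 passed as lower, beside 0% of all genes in either direction. The count of collagen genes that passed as lower stayed at 0 in 8 of the 12 alternatives tried.

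Changes over 12 h of ActD were taken as the slope of a line through the 3 times, tested with limma for each genotype and for the difference between them. In control cells 3 collagen genes rose at adjusted p under 0.05 (Col25a1, Col4a5 and Col9a2) and 0 fell, beside 7.68% and 14.5% of all genes. At an unadjusted p, 7 had a higher and 0 a lower value over time, beside 20% and 21.6%. Centred on ribosomal protein genes, none of the 3 passed, and with only those probe sets whose identifier has no mark of shared sequence, or with 16 added before the logarithm, 1 did. In Cnot3KO cells 0 collagen genes passed in either direction, where 0.182% of all genes passed as falling and 0.182% as rising. Unadjusted, 11 collagen genes were declining and 1 increasing in Cnot3KO cells, beside 8.25% and 9.32%. For the difference between both changes no gene of the array passed at adjusted p, 0% in either direction. At an unadjusted p, 10 collagen genes had a change that was more negative in Cnot3KO cells and 0 a more positive one, beside 4.95% and 12.8% of all genes.

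Over the 42 genes the median change was 0.25 in control and -0.04 in Cnot3KO cells, and the median difference between both was -0.39 on the log2 scale, with 36 of 42 genes below 0. Over all genes tested the median difference between the changes was -0.04. Over the 38 collagen genes tested it was -0.40, and with the arrays centred on ribosomal protein genes or on Gapdh it was -0.29 or -0.62. Over the alternatives tried, the median change of those genes ranged from 0.10 to 0.43 in control and from -0.27 to -0.03 in Cnot3KO cells. Among the 23 collagen genes above the median on all arrays, the median change was 0.28 in control and -0.44 in Cnot3KO cells. The gap between the genotypes grew from 0 to 6 h and again from 6 to 12 h, towards lower values in Cnot3KO cells, for 15 of these 23 genes (65.2%), against 25.3% of all genes above the median on all arrays. In 13 of the 23 (56.5%) every Cnot3KO array lay below every control array, against 11.8% of all such genes, and the reverse was seen in 0, against 20.7%. The panels of log2 intensity by time show these courses gene by gene.

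**Figure D1:**
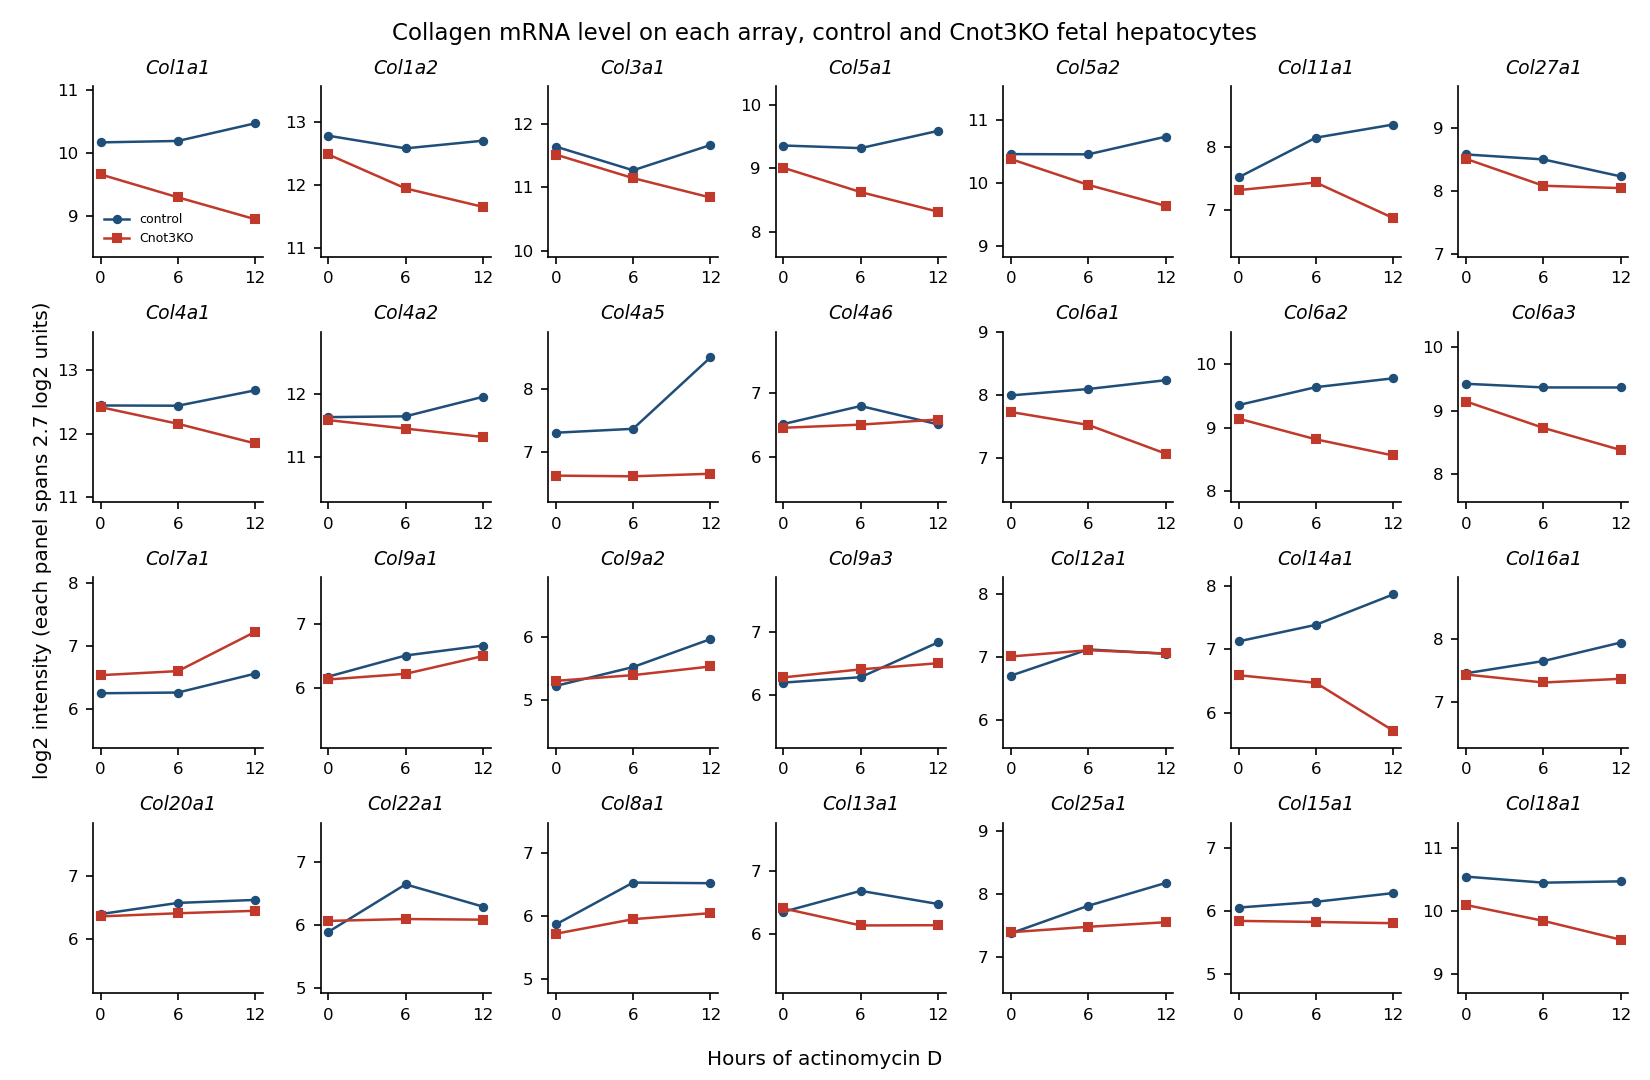
Each panel plots the log2 intensity of 1 collagen mRNA (vertical axis, spanning 2.7 log2 units in every panel) against hours of ActD (0, 6 and 12) in control (blue circles) and Cnot3KO cells (red squares), 1 array per point, for the 28 genes described by name. For Col1a1, Col5a2, Col6a2 and Col14a1 the red line runs downwards and ends below the blue one, whereas for Col7a1 it runs above it.

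The fibrillar collagens were present at high signal and most of them were lower in Cnot3KO cells after ActD. Of the 11 genes of this class, 7 lay above the median on all arrays (Col1a1, Col1a2, Col3a1, Col5a1, Col5a2, Col11a1 and Col27a1). Over all 11 the median difference was -0.23 at 0 h and -0.83 at 12 h on the log2 scale, and 11 of 11 were below 0 at 12 h.

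Col1a1, the main chain of type I collagen, had intensities of 1148, 1167 and 1416 in control cells and 808, 628 and 494 in Cnot3KO cells at 0, 6 and 12 h. All Cnot3KO values lay below all control values, and the 2 courses ran in opposite directions. The genotype difference over the times was -0.97 ± 0.22 (SE) on the log2 scale (limma, adjusted p = 0.059). Over 12 h the level changed by 0.30 in control and by -0.71 in Cnot3KO cells, a difference of -1.01 (limma, adjusted p = 0.20).

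Col1a2 encodes the partner chain of Col1a1. Its intensity was 7059, 6143 and 6682 in control cells and 5747, 3959 and 3234 in Cnot3KO cells. Control values stayed within a narrow range, while each later Cnot3KO array was lower than the one before. The genotype difference was -0.66 ± 0.19 (SE; limma, adjusted p = 0.079) and the level at 12 h was 2.07-fold lower in Cnot3KO cells. Because ActD blocks transcription, the promoter of this fibrillar gene is shown as an example: the 300 bases around the start of Col1a2 (RefSeq, GRCm38.p6, chr6:4505368-4505667, plus strand, 250 bases before the start and 50 from it on) have CCAAT and GGGCGG, read on either strand, in capitals.
Col1a2: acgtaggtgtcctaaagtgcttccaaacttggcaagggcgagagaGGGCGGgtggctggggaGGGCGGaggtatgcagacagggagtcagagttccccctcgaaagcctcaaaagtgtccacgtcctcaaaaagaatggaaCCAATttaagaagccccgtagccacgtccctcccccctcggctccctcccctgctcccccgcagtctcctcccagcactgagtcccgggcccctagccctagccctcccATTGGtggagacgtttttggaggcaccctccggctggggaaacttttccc
Counted from the start as 0, GGGCGG begins at -205 and -188, CCAAT at -109, and ATTGG, which is CCAAT on the other strand, at the start itself.

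Col3a1, the chain of type III collagen, which co-assembles with type I in distensible tissue, had intensities of 3206, 2472 and 3262 in control and 2937, 2269 and 1834 in Cnot3KO cells. Both genotypes were close at 0 and 6 h and stood apart at 12 h, when the level was 1.78-fold lower in Cnot3KO cells. The difference between the changes, -0.70, was 0.01 without the 12 h arrays, so it rests on that time.

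Col5a1 and Col5a2, chains of type V collagen, which sets the diameter of type I fibrils, differed in the same direction. Col5a1 had 658, 639 and 772 in control and 515, 395 and 318 in Cnot3KO cells, a genotype difference of -0.78 ± 0.21 (SE; limma, adjusted p = 0.073). Col5a2 had 1409, 1406 and 1705 in control and 1334, 1005 and 799 in Cnot3KO cells. Its values were close at 0 h, and its difference between the changes was -1.02 (limma, adjusted p = 0.20). The third type V chain, Col5a3, was below the array median, between 32.1 and 51.4.

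Col11a1, a chain of type XI collagen, known from cartilage and from activated fibroblasts, had 183, 282 and 326 in control and 159, 173 and 117 in Cnot3KO cells. Its control values were in ascending order, and the lowest of the 6 values was the last Cnot3KO array. The difference between its changes was -1.28 (limma, adjusted p = 0.21). Col27a1, a fibrillar chain of cartilage, had 383, 362 and 301 in control and 364, 271 and 264 in Cnot3KO cells, and like Col1a2 it was lower at 12 h than at 0 h in both genotypes. Its difference between the changes was -0.12, and its genotype difference, -0.22 ± 0.15 (SE), was within the SD between probe sets.

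**Figure D2:**
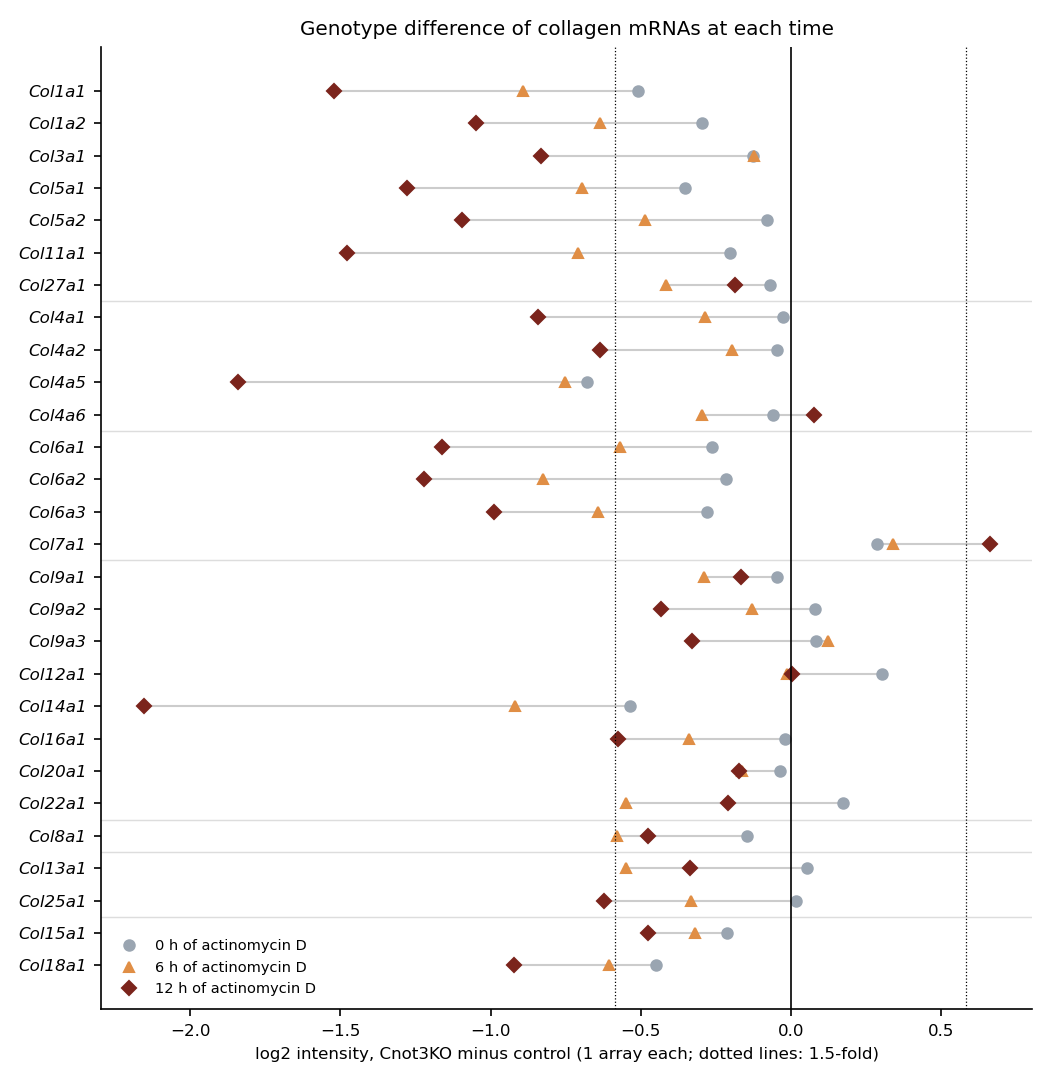
The genotype difference in log2 intensity, Cnot3KO minus control (horizontal axis, 1 array of each genotype), is plotted for the 28 collagen genes described by name, grouped by class, at 0 h (grey circles), 6 h (orange triangles) and 12 h (dark red diamonds) of ActD. Dotted lines mark 1.5-fold: at 12 h 15 genes lie beyond the left line and Col7a1 lies beyond the right one.

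Among the basement membrane collagens, the abundant pair Col4a1 and Col4a2 had nearly the same level in both genotypes before ActD. Col4a1 had intensities of 5577, 5562 and 6585 in control and 5475, 4560.1 and 3675 in Cnot3KO cells. Col4a2 had 3179, 3207 and 3972 in control and 3078, 2803 and 2558 in Cnot3KO cells. In both genes the highest control value and the lowest Cnot3KO value were those at 12 h, when Col4a1 was 1.79-fold and Col4a2 1.55-fold lower in Cnot3KO cells. The differences between the changes were -0.82 for Col4a1 and -0.59 for Col4a2 (limma, adjusted p = 0.24 and 0.34).

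Both genes lie head to head and are known to share 1 promoter, with starts 21 bases apart in the RefSeq annotation. By these starts the 5' ends of both transcripts overlap, so the bases before each start run into the transcript of the other gene. Their 300-base windows (GRCm38.p6) overlap by 78 bases, shown in capitals. The window of Col4a1 is chr8:11312777-11313076 on the minus strand and that of Col4a2 is chr8:11312555-11312854 on the plus strand, each printed in the direction of its own gene.
Col4a1: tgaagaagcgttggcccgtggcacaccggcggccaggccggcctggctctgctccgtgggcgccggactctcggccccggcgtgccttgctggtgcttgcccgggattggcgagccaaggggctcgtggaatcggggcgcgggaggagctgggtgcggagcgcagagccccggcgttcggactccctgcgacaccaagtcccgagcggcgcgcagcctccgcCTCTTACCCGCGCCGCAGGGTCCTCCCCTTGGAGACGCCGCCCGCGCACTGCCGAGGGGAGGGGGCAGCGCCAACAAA
Col4a2: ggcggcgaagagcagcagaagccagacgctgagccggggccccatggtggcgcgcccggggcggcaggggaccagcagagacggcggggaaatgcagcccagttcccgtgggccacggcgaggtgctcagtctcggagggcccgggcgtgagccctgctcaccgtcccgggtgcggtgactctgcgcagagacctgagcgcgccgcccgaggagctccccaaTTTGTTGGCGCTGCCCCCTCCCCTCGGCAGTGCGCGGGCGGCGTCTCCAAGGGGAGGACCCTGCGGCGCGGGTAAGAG
The capitals of one are the reverse complement of the capitals of the other.

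The other pair with windows for both genes, Col4a5 and Col4a6, has starts 1343 bases apart and no shared base. Col4a5, which with other minor chains builds the mature membrane of the kidney glomerulus, had 158, 165 and 361 in control and 98.6, 97.9 and 101 in Cnot3KO cells. It was lower in Cnot3KO cells at every time, also before ActD, and its control value at 12 h stood apart from the other arrays. Its genotype difference was -1.09 ± 0.26 (SE; limma, adjusted p = 0.062), and its change in control cells, 1.19, passed (limma, adjusted p = 0.047). Without the 12 h arrays that change was 0.12 per 12 h. Col4a6 had 91.4, 111 and 91.1 in control and 87.7, 90.8 and 96.0 in Cnot3KO cells, and the genotypes overlapped. Col4a3 and Col4a4 were below the array median on every array.

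The 3 abundant chains of type VI collagen, which build 1 heterotrimer of beaded filaments around cells, had like courses. Col6a1 had 255, 274 and 301 in control and 213, 184 and 135 in Cnot3KO cells. Col6a2 had 656, 798 and 879.7 in control and 565, 450.4 and 377 in Cnot3KO cells. Col6a3 had 687, 661 and 660.1 in control and 566, 424 and 332 in Cnot3KO cells. In each of the 3 genes all Cnot3KO arrays lay below all control arrays and the lowest value was that of Cnot3KO at 12 h, 2.24-, 2.33- and 1.99-fold below control. The genotype differences were -0.66 ± 0.21, -0.75 ± 0.22 and -0.64 ± 0.18 (SE), with limma adjusted p-values of 0.091, 0.082 and 0.080. Col6a4 and Col6a5, chains of other type VI assemblies, were below the array median.

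Col7a1, which encodes the anchoring fibril that ties epithelial basement membrane to the tissue beneath, differed in the other direction. Its intensity was 76.3, 77.0 and 94.7 in control and 93.1, 97.4 and 149.9 in Cnot3KO cells. At each time the Cnot3KO array was higher, although the groups overlapped, and at 12 h the level was 1.58-fold higher. The genotype difference was 0.43 ± 0.15 (SE; limma, adjusted p = 0.12). No other collagen gene tested had an unadjusted p under 0.05 with a higher value in Cnot3KO cells.

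Fibril-associated collagens were of low to moderate signal and 1 of them stood apart. Col14a1, which binds fibrils through decorin and is known from mature fibroblasts, had 139.9, 168 and 234 in control and 96.4, 88.7 and 52.5 in Cnot3KO cells. The groups did not overlap, and the level at 12 h was 4.46-fold lower in Cnot3KO cells, the largest difference among the 42 genes. Its other probe sets, below the array median on every array, gave differences of -1.04 and -0.17 on the log2 scale at 12 h, beside -2.16 for the brightest. The genotype difference was -1.20 ± 0.32 (SE; limma, adjusted p = 0.071) and that between the changes -1.62 (limma, adjusted p = 0.18). The change in Cnot3KO cells, -0.88, was -0.24 without the 12 h arrays, and the difference between the changes was then -0.76.

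Col16a1, a minor fibril-associated chain, had 176, 201 and 246 in control and 173, 159 and 165 in Cnot3KO cells, and was close between the genotypes at 0 h only. Col12a1, which lies on type I fibrils, had 104, 139 and 133 in control and 129, 138 and 133 in Cnot3KO cells on its brightest probe set. Its other probe set above the median read 136, 135 and 186 in control and 114, 114 and 84.9 in Cnot3KO cells, so the 2 probe sets of Col12a1 disagree in sign over the times, 0.10 against -0.54, and the gene is left without a direction.

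The chains of type IX collagen, a cartilage collagen, were higher at 12 h than at 0 h in both genotypes. Col9a1 and Col9a3 were near the array median, and Col9a2 was below it on every array. Col9a1 had 72.2, 91.0 and 102 in control and 70.0, 74.5 and 90.5 in Cnot3KO cells. Col9a2 had 37.6, 46.2 and 62.7 in control and 39.7, 42.3 and 46.5 in Cnot3KO cells, and its change in control cells, 0.74, passed (limma, adjusted p = 0.047). Col9a3 had 73.7, 78.2 and 114 in control and 78.0, 85.2 and 91.1 in Cnot3KO cells. In all 3 the change was smaller in Cnot3KO cells, by 0.12 for Col9a1, 0.41 for Col9a3 and 0.51 for Col9a2 on the log2 scale, of which the first 2 are within the SD between probe sets. Col20a1 had 84.4, 95.3 and 98.6 in control and 82.3, 85.1 and 87.5 in Cnot3KO cells, and Col22a1 had 59.4, 100.2 and 78.5 in control and 67.1, 68.5 and 68.0 in Cnot3KO cells. Neither Col20a1 nor Col22a1 differed by more than 1.5-fold at 12 h.

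**Figure D3:**
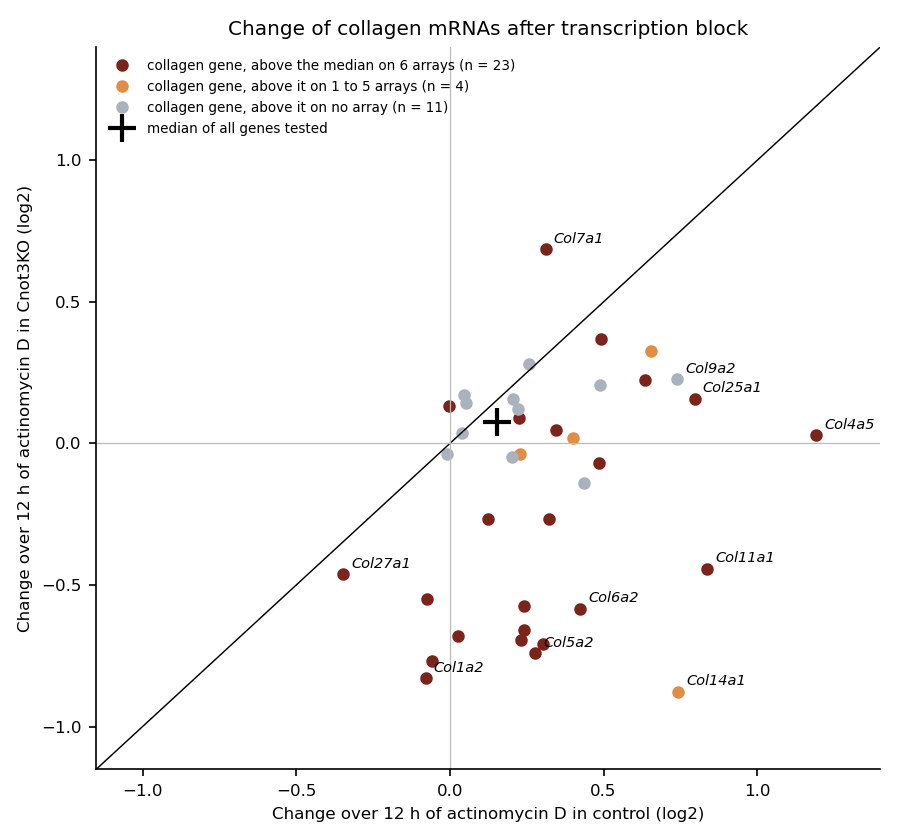
The change over 12 h of ActD in Cnot3KO cells (vertical axis, log2) is plotted against that in control cells (horizontal axis, log2) for the 38 collagen genes tested, coloured by the number of arrays on which they lay above the array median, with the median of all genes tested as a cross and the line of equal change. Most points lie below the line, 33 of 38, and Col7a1 lies above it.

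Col18a1, which carries heparan sulfate and holds the peptide endostatin at its end, is a collagen of the multiplexin class that hepatocytes are known to make. Its intensity was 1493, 1397 and 1418 in control and 1094, 919 and 748 in Cnot3KO cells. Control values were nearly level and all Cnot3KO values lay below them, already at 0 h, when the difference was -0.45 on the log2 scale. The genotype difference was -0.66 ± 0.16 (SE; limma, adjusted p = 0.063), and the level at 12 h was 1.90-fold lower. Col15a1, the other multiplexin, had 66.6, 71.0 and 78.1 in control and 57.5, 56.9 and 56.1 in Cnot3KO cells. It lay near the array median and its groups did not overlap.

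Of the transmembrane collagens, Col25a1, known from neurons and muscle, had 167, 226 and 289.8 in control and 169, 179 and 188 in Cnot3KO cells. Both genotypes started level, the control value was in ascending order and its change, 0.80, passed (limma, adjusted p = 0.039), while the change in Cnot3KO cells was 0.16. The mean of its probe sets gave 0.40 in control cells, which did not pass. Col13a1, which sits at cell contacts, had 82.1, 103 and 89.4 in control and 85.1, 70.7 and 70.8 in Cnot3KO cells, so that its 6 h arrays differed most. Col8a1, a short chain network collagen of vessel walls, had 58.6, 92.7 and 92.1 in control and 52.9, 62.0 and 66.3 in Cnot3KO cells, and its groups overlapped.

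The remaining 14 genes were below the array median on every array and are given as a group with Col9a2. For these 15 genes the difference at 12 h ranged from -0.55 to 0.01 on the log2 scale with a median of -0.26. The genotype difference over the times had a median of -0.16. For both quantities 14 of the 15 genes were below 0, beside 51.5% of all genes tested at 12 h and 52.7% over the times. The SD between probe sets was taken from brighter genes and holds for single genes, so it gives no measure for these medians. Col17a1, Col24a1, Col6a5 and Col8a2 did not pass the filter on low signal and were not tested. Col2a1, Col4a3, Col4a4, Col5a3, Col6a4, Col10a1, Col11a2, Col19a1, Col23a1 and Col26a1 were tested, and of these Col5a3 had an unadjusted p under 0.05 for the genotype difference, with -0.35 ± 0.13 (SE; limma, adjusted p = 0.14).

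A gene with more than 1 probe set gives a second reading of the same arrays. The 42 genes had 82 probe sets, none of which named another gene. Besides the brightest ones there were 40 probe sets of 27 genes. Of these 40, 36 were lower in Cnot3KO cells at 12 h, 37 over the times and 28 at 0 h, and in 36 the change was more negative in Cnot3KO cells. They read the same 6 arrays and add no replicate. Most were dim, with 12 above the array median on all arrays, 2 on some and 26 on none. Among the dim ones the change was more positive in Cnot3KO cells for 1 probe set each of Col6a4, by 0.24, Col20a1, by 0.06, Col12a1, by 0.05, and Col19a1, by 0.04. At 0 h the bright second probe set of Col4a1 was higher in Cnot3KO cells by 0.22. For Col1a2 the bright second probe set gave a genotype difference of -0.96 beside -0.66, for Col3a1 -0.49 beside -0.36 and for Col5a2 -0.72 beside -0.55. It was smaller in size for Col1a1, -0.57 beside -0.97, Col4a1, -0.13 beside -0.38, Col4a5, -0.74 beside -1.09, and Col6a2, -0.66 beside -0.75. The further probe sets of Col5a1 gave -0.42 and -0.81 beside -0.78. Those of Col11a1, Col18a1, Col20a1 and Col27a1 gave larger negative values than the brightest. At 0 h the bright second probe set of Col1a1 was lower in Cnot3KO cells by 0.05, the brightest by 0.51.

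**Figure D4:**
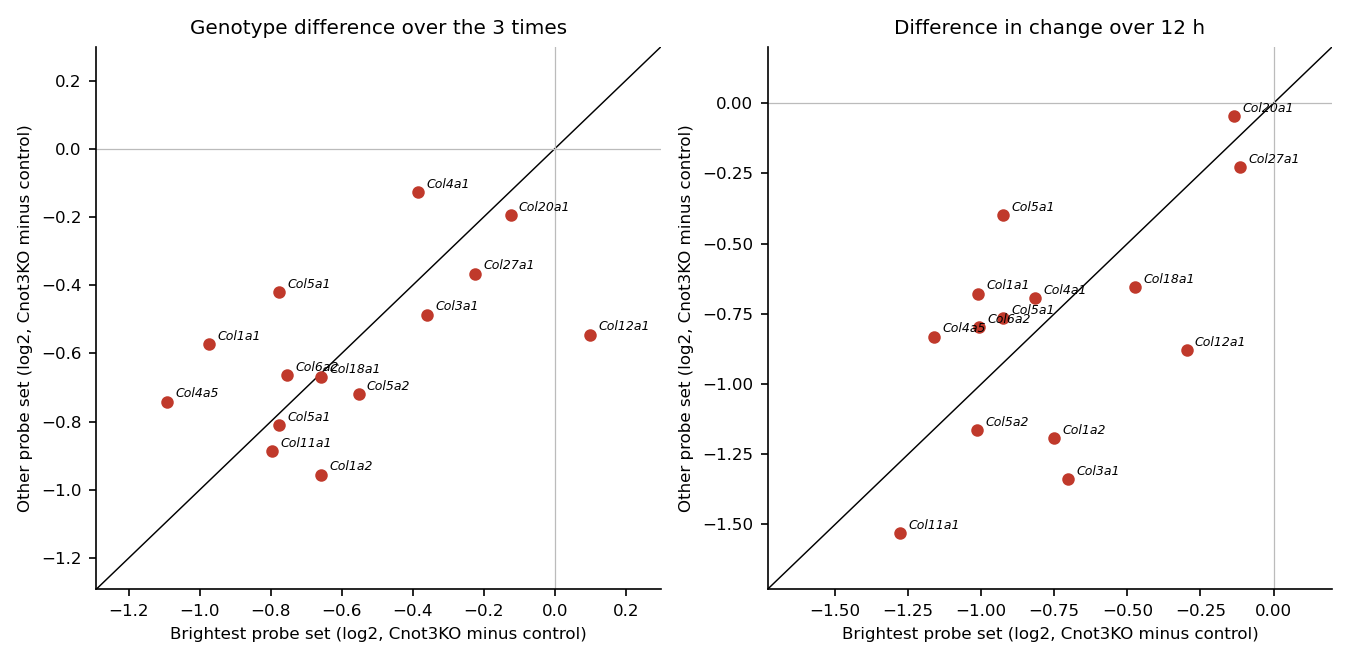
For the 14 further probe sets of collagen genes above the array median on at least 1 array, the genotype difference over the 3 times (left) and the difference between the changes over 12 h (right) are plotted against those of the brightest probe set of the same gene, all as log2, Cnot3KO minus control, with the line of equality. The points lie below 0 on the vertical axis in both plots, those of Col11a1 and Col4a5 being of probe sets above the median on control arrays only, and Col12a1 is the gene with a brightest probe set above 0 on the left.

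Short motifs were searched in the RefSeq promoter windows, which held 33 of the 42 genes. These 33 genes had 36 windows. GGGCGG, known as a binding motif of Sp1, was found on either strand in 22 of 36 windows (21 of 33 genes), beside 35.7% of 32851 windows of all genes. CCAAT was present in 13 of 36 windows, beside 37.4%, and TATAAA in 5 of 36, beside 13.6%. CAGACA, known as part of a Smad binding element, was present in 8 of 36, beside 21%. None of the 4 motifs contains another, and a match is a description of the sequence only.

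Genes that make, fold, cross-link and bind collagen were measured beside the collagens, 84 of the 90 listed. None passed the test of the genotype difference or of the difference between the changes at adjusted p. At an unadjusted p, 29 of 84 were lower and 7 higher in Cnot3KO cells, beside 11% and 22.4% of all genes, which is also the background for the counts of each list. Over all 8 lists, 69 of 84 had a change over 12 h that was more negative in Cnot3KO cells, beside 52.9% of all genes tested, and of the 72 outside the Tgf-beta list 67 had.

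Lysyl oxidases cross-link collagen outside the cell, and 3 of 4 measured were lower at an unadjusted p. Lox had intensities of 574, 961 and 1205 in control and 454, 531 and 377 in Cnot3KO cells. It rose in control cells by 1.07 on the log2 scale (limma, adjusted p = 0.044), and its change in Cnot3KO cells was -0.27. Loxl1 was at 152 in control and 57.3 in Cnot3KO cells at 12 h, the lowest value of each genotype. Loxl4 rose in control cells by 1.14 (limma, adjusted p = 0.027), and its change in Cnot3KO cells was 0.16. Loxl3 had a genotype difference of -0.25, with a median of -0.80 for the list.

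Procollagen proteinases and their enhancers trim the ends of the chains so that fibrils can form, and 3 of 6 were lower at an unadjusted p. Bmp1, the C-proteinase, had 940.4, 1159 and 1656 in control and 744, 803 and 783 in Cnot3KO cells. Its enhancer Pcolce2 had 797, 1641 and 2134 in control and 567, 856 and 745 in Cnot3KO cells, a genotype difference of -0.98 (limma, adjusted p = 0.059). Bmp1, Pcolce and Pcolce2 rose in control cells, by 0.82, 1.05 and 1.42.

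Of the hydroxylases and glycosyltransferases that modify the chains in the endoplasmic reticulum, 3 of 15 were lower and 1 higher at an unadjusted p. In control cells Plod2, P3h1, P3h3 and Crtap rose, by 1.01, 0.85, 0.82 and 1.13. Crtap, a partner of prolyl 3-hydroxylase, had 1100.5, 1677 and 2408 in control and 877, 990.1 and 1154 in Cnot3KO cells. Plod2, the lysyl hydroxylase of telopeptides, was higher in Cnot3KO cells at all times, with a genotype difference of 0.45 (limma, adjusted p = 0.12), and that of Plod1 was -0.46.

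Collagen chaperones and export factors had 0 of 9 lower and 2 higher at an unadjusted p. Sec24d, a coat protein of the vesicles that carry procollagen, fell in both genotypes, with changes of -2.28 in control and -1.81 in Cnot3KO cells (limma, adjusted p = 0.0076 and 0.045). Klhl12, which helps to build large vesicles, had 335, 188 and 157 in control and 336, 289 and 364 in Cnot3KO cells, and fell in control cells (a change of -1.10). Fkbp14 and Sec13 had genotype differences of -0.32 and -0.15.

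Collagen-binding matrix proteins had 9 of 19 lower and 0 higher at an unadjusted p. Lamc1, the laminin chain common to most basement membranes, had 1044, 1131 and 1191 in control and 979, 679 and 460.3 in Cnot3KO cells, with a difference between the changes of -1.28. Lama4, a laminin chain of vessels, had a genotype difference of -0.74 ± 0.14 (SE; limma, adjusted p = 0.054) and fell in control cells (a change of -1.01). Thbs1 and Nid2 had genotype differences of -0.69 and -0.65. Lum, Lamb2 and Postn rose in control cells, by 1.04, 0.92 and 0.93, and their changes in Cnot3KO cells were 0.05, 0.09 and -0.08.

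Collagen receptors had 5 of 9 lower and 0 higher at an unadjusted p. Itga1, which with Itgb1 forms a receptor for type IV collagen, had 367, 602 and 762 in control and 248, 271 and 216 in Cnot3KO cells, a genotype difference of -1.18 (limma, adjusted p = 0.057). Itga1 and Itgb1 rose in control cells, by 1.06 and 0.95. Ddr2, the tyrosine kinase receptor of fibrillar collagen, and Mrc2, which takes collagen up, had genotype differences of -0.45 and -0.54.

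Of collagenases, gelatinases and their inhibitors, 4 of 10 were lower and 0 higher at an unadjusted p. Mmp8, a collagenase, had 1844, 2856 and 4314 in control and 1273, 1705 and 2043 in Cnot3KO cells, a genotype difference of -0.79 (limma, adjusted p = 0.055). Mmp13, the main collagenase of rodents, started level, with 100.2 in control and 101 in Cnot3KO cells, and was 231 and 63.1 at 12 h. Timp3, an inhibitor held in the matrix, had a genotype difference of -0.65. Mmp8, Mmp9 and Timp1 rose in control cells, by 1.23, 0.91 and 1.06.

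Ligands, receptors and targets of Tgf-beta, which induces collagen genes, had 2 of 12 lower and 4 higher at an unadjusted p. The median difference between the changes was 0.65 on the log2 scale. In control cells 6 of the 12 fell at adjusted p, beside 14.5% of all genes tested. The changes of these 6 were -1.64 for Tgfbr1, -1.60 for Tgfbr2, -2.56 for Smad2, -2.32 for Smad3, -2.86 for Smad4 and -1.11 for Tgfbi. Smad2 had 810.5, 204 and 137 in control and 1309, 876 and 959 in Cnot3KO cells, and Smad4, the common partner of both Smads, had 2129.7, 429 and 293 in control and 2435, 1609 and 1489.7 in Cnot3KO cells. Ccn2, a target, had 4152, 697 and 982 in control and 3186, 2407 and 2862 in Cnot3KO cells. Tgfbr3, a co-receptor, was lower in Cnot3KO cells at every time, with 911, 1019 and 929 in control and 685, 410.4 and 324 in Cnot3KO cells.

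**Figure D5:**
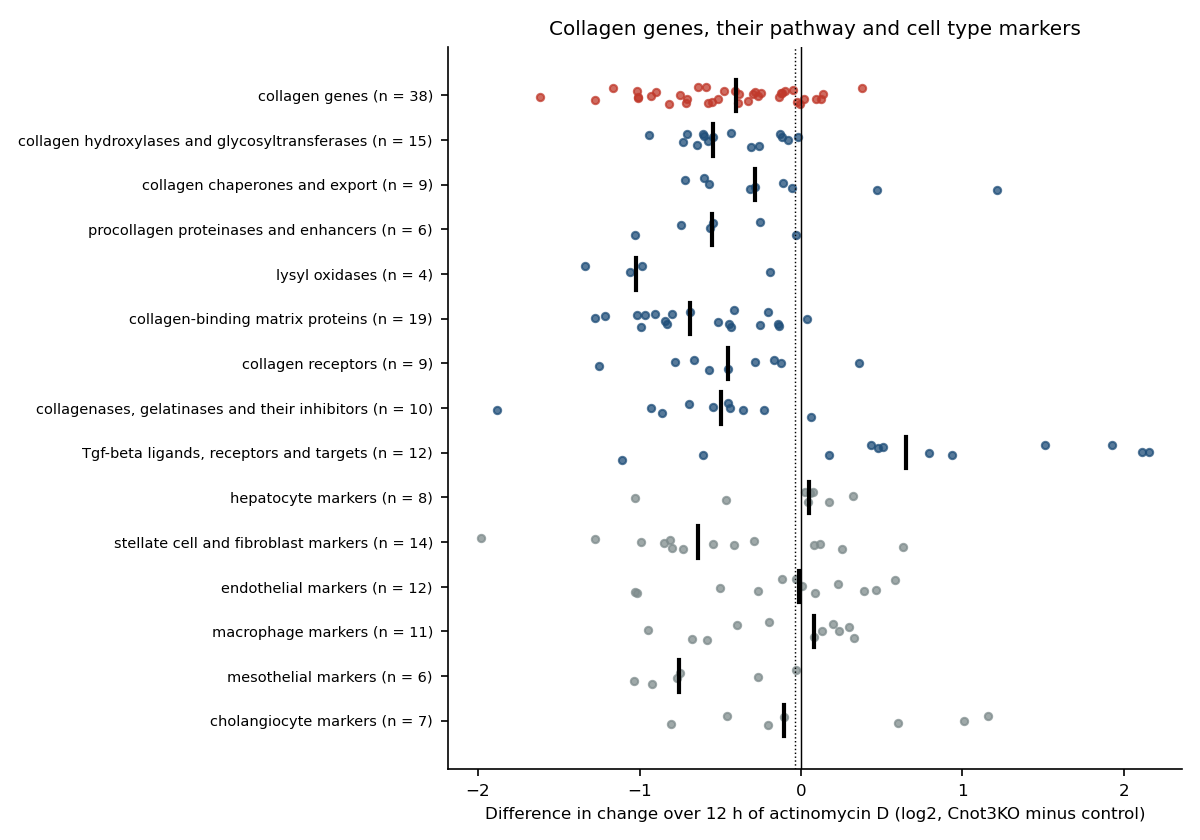
The difference in the change over 12 h of ActD between Cnot3KO and control cells (horizontal axis, log2) is plotted for each gene of the collagens (red), of 8 lists of the collagen pathway (blue) and of 6 lists of cell type markers (grey), with the median of each list as a black bar, 0 as a solid line and the median of all genes tested as a dotted line; vertical scatter within a row has no meaning. Collagens and 7 pathway lists have medians below 0, and the Tgf-beta list has its median at 0.65.

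The cultures were labelled fetal hepatocytes, and the markers of hepatocytes were at very high signal. The summed intensity of the 8 hepatocyte markers measured was 160200 to 176200 in control and 162100 to 170000 in Cnot3KO cells. Markers of other liver cells were present too. Of 14 stellate cell and fibroblast markers tested, 6 were lower and 1 higher at an unadjusted p, and the median difference between the changes was -0.64. The sum over that list was 22820 to 27420 in control and 23440 to 25650 in Cnot3KO cells, and 2 of its markers, Dcn and Lum, were on a pathway list too. Most of that sum was Vim, the marker that was higher, with 14231, 14815 and 12211 in control and 18869, 17862 and 17579 in Cnot3KO cells. With Vim set aside after its values were seen, the 14 other markers measured summed to 8592, 12600 and 12210 in control. In Cnot3KO cells they summed to 6777, 7678 and 5861, lower at each time. The largest part of each sum was Acta2, and not every marker was lower. At 0 h Reln and Tagln were higher in Cnot3KO cells, by 0.32 and 0.05 on the log2 scale. The median difference over the 14 markers tested, Vim included, was -0.18 at 0 h. Lrat was the 1 marker of the stellate cell and fibroblast list at or below the 20th percentile on all arrays. Pdgfrb had 587, 206 and 79.9 in control and 321, 79.0 and 24.8 in Cnot3KO cells, and Acta2 had 4608, 6974 and 5957 in control and 3125, 3592 and 2435 in Cnot3KO cells.

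Macrophage markers were lower in Cnot3KO cells, with 3 of 11 passing at adjusted p, beside 0.285% of all genes as lower. They had a median genotype difference of -0.61 and sums of 11790 to 15700 in control and 9082 to 9170 in Cnot3KO cells. Their median difference between the changes was 0.08. Endothelial markers had 8 of 12 lower at an unadjusted p, sums of 1318 to 2448 in control and 924 to 1715 in Cnot3KO cells and a median difference between the changes of -0.01. Mesothelial markers had sums of 560 to 1116 and 724 to 861, with 2 of 6 lower at an unadjusted p and a median difference between the changes of -0.76. Of 7 cholangiocyte markers tested, 2 passed as higher and 1 as lower at adjusted p, beside 0.703% and 0.285% of all genes. At an unadjusted p, 3 were higher and 1 lower, beside 22.4% and 11%. The list had a median genotype difference of 0.26 and a median difference between the changes of -0.10. Its sums were 19530 to 22790 in control and 34150 to 41380 in Cnot3KO cells, and its marker Cftr was at or below the 20th percentile on all arrays. The part of these cell types in the collagen differences was not tested.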

How the data were processed

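Total RNA was measured on 6 arrays, 1 for each genotype and time, and groups were taken from the labels. The authors summarised each probe set with RMA (Robust Multi-array Average); which program ran it is not given in the sources used here. Deposited values are intensities on a linear scale, and log2 was taken of them here. RMA corrects the background, equalises the arrays and summarises probes near the 3' end, so a decline common to every mRNA is invisible. Precision is limited by the number of arrays.

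Gene symbols came from the platform annotation. Of 45037 probe sets 34945 carried 1 symbol, 932 several and 9160 none. Each gene was represented by its brightest probe set naming it alone. Genes above the 20th percentile on at least 1 array were tested, 16499 in all. limma 3.58.1 in R 4.3.3 was used with genotype and time as terms, and with a slope on hours for each genotype, times 12 h, with 2 residual degrees of freedom each and Benjamini-Hochberg adjustment over all genes tested. Both models were tested on simulated data. At 0 and 12 h single arrays were compared at 1.5-fold without a test.

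Collagen genes were named if above the array median on at least 1 array or past a test. From each pathway list any gene that passed a test was named, and up to 4 with the largest genotype difference among those above the array median on at least 1 array. Col12a1's second probe set, Col5a3 and the cell type markers given by name were chosen after their values were seen. The collagen genes and the lists were chosen with earlier results of these data known. Alternatives comprised other filters, probe set choices, scalings, a pseudocount of 16, an intensity trend, each time left out and the time term left out. Figures were drawn with matplotlib 3.10.9 in Python 3.11.15.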

Additional observations from a re-analysis of the deposited data

Results flagged for a closer look

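Collagen mRNAs whose control arrays at 6 and 12 h both lay above that at 0 h, while both Cnot3KO arrays lay below theirs, were picked out because the genotypes moved in opposite directions. This held for 11 of 42 collagen genes, beside 7.55% of all genes tested, and the 8 above the array median on at least 1 array follow, while Col10a1, Col6a4 and Col6a5 were below it on every array. The difference between the changes over 12 h, Cnot3KO minus control on the log2 scale, was -1.62 for Col14a1 (limma, adjusted p = 0.18), -1.01 for Col1a1 (adjusted p = 0.197) and -1.01 for Col6a2 (adjusted p = 0.193). It was -0.897 for Col6a1 (adjusted p = 0.223), -0.588 for Col4a2 (adjusted p = 0.342) and -0.554 for Col16a1 (adjusted p = 0.353). For Col13a1 it was -0.389 (adjusted p = 0.569) and for Col15a1 -0.266 (adjusted p = 0.631), both within the SD between probe sets, and for Col13a1 it was 0.423 without the 0 h arrays. The difference was tested for each of the 8 genes, and none passed. Because the genes were picked by these same values, a negative sign over all arrays was fixed in advance and is no result.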

How the results depend on the processing

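Each genotype and time had 1 array, so there were no replicates to pair, and the main model compared the genotypes within each time. With time left out of the model (no replicate block), 0 collagen genes passed as lower at adjusted p, 11 were lower unadjusted and 0 were higher. The count lower over the times at adjusted p, 0 as reported, became 9 centred on Gapdh, 4 with an intensity trend, 1 with the mean of all probe sets and 14 without the 0 h arrays. For this count, shares of all genes were taken only without the 0 h arrays and centred on Gapdh or on ribosomal protein genes. The other counts under alternatives have no share of all genes beside them and are no result about collagen genes. The unadjusted count of 13 lower became 8 without the 12 h arrays and 3 without the 6 h arrays, and the 1 higher became 0 in both and centred on Gapdh. The 3 genes that rose in control cells became 5 centred on Gapdh, 0 centred on ribosomal protein genes, and 1 each with probe sets without a suffix and with a pseudocount of 16. Unadjusted, these 7 became 12 centred on Gapdh and 4 on ribosomal protein genes, where the 1 gene increasing in Cnot3KO cells became 0. At 0 h the 1 gene lower became 2 centred on Gapdh, and 0 at 2-fold or with the mean of probe sets. The difference between the changes had 0 genes at adjusted p throughout, 7 to 14 lower unadjusted, and a median from -0.62 to -0.29. Of the 28 genes described by name, the sign turned under at least 1 alternative for 3 in the genotype difference, 9 in the difference between the changes, 12 in the change in control and 6 in that in Cnot3KO cells, among them Col13a1, Col22a1 and Col27a1 (difference between the changes 0.423, 0.682 and 0.463 without the 0 h arrays), Col11a1 (change in Cnot3KO cells 0.241 without the 12 h arrays), Col8a1 (change in control -0.0197 without the 0 h arrays) and Col3a1 (difference between the changes 0.00508 without the 12 h arrays). Causes were not tested. Gapdh shares its probe set with pseudogenes. Centring moved the median difference between the changes of all genes by 0.11 (15 ribosomal protein genes) or by -0.22 (Gapdh). Without 1 time the slopes have no residual degrees of freedom and are values only. Signal near the background limits the 15 genes below the array median.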
